A study of Mus musculus with 3 samples.

Results

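Foxp3-positive regulatory T cells (Tregs) were chosen by the Foxp3, T cell and Cd8 UMIs of each cell in single-cell RNA-Seq of mouse lung leukocytes. A Treg had at least 2 UMIs (unique molecular identifiers, each standing for a captured RNA molecule) of Cd3d, Cd3e, Cd3g, Trac and Trbc2 together, at least 1 UMI of Foxp3 and none of Cd8a or Cd8b1. It also had at most 1 UMI of Cd79a, Cd79b and Ms4a1 and under 0.5% of its UMIs on S100a8, S100a9 and Lyz2, which mark B cells and myeloid cells. This gave 84 Tregs among 21029 cells that passed the filters, 13 in the naive library, 31 in the library at 2 hours and 40 in the library at 3 days. They were compared with 564 Foxp3-negative CD4 T cells, which had a Cd4 UMI and neither Foxp3 nor Cd8 UMIs, 184, 104 and 276 in the same order. All values below are given in the order naive, 2 hours and 3 days.

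The naive library came from left lungs of untreated C57BL/6J mice. The other libraries came from left lungs of CD45.2 donors transplanted into congenic B6 CD45.1 recipients after 60 minutes of cold storage at 4 °C and 45 minutes at 28 °C, harvested after 2 hours or 3 days of reperfusion. The labels give C57BL/6J for every library, and the study lists its B6 CD45.1 mice as B6.SJL-Ptprca Pepcb/BoyJ. Each library held cells of 2 pooled mice, stained for CD45.1 and CD45.2 and sorted. The study sorted CD45.1 cells, so the transplant libraries hold recipient cells that had entered the graft, and the sources used here do not state which fraction was sorted from the naive lungs. The labels name kits of both chemistries, 5′ and 3′, without saying which served which library, whereas the study's methods name a 3′ kit alone. The labels give no age; the study states a single age range for all its mice. Because each condition is 1 library, mice could not be tested against each other, and all intervals cover 95% of counting error only.

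Tregs are CD4 T cells that restrain other immune cells. The transcription factor Foxp3 defines them, and they capture IL-2 through a high-affinity receptor that holds Il2ra (CD25), withhold costimulation through Ctla4, and in tissues such as lung can carry the IL-33 receptor Il1rl1 (ST2) and make the repair factor Areg. Some recirculate through lymphoid organs with the help of the homing receptor Ccr7, and others stay in tissue with the integrin Itgae (CD103).

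The libraries differed widely in depth. The Tregs held 134595, 45731 and 286642 UMIs in all, with medians of 10564, 1135 and 6526.5 UMIs per cell. Foxp3-negative CD4 T cells of the same libraries had medians of 9019.5, 1209.5 and 7656. The least deep Treg had 4702, 723 and 3318 UMIs and the deepest 17398, 3352 and 14142. The Tregs at 2 hours were the shallowest, and the ratios below were taken within a library wherever possible. Pairs of libraries shared 8, 1 and 23 cell barcodes (naive with 2 hours, naive with 3 days and 2 hours with 3 days), and none of these belonged to a Treg. Scrublet called 3 Tregs doublets, all at 2 hours, and they were kept.

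Foxp3, the gene of the rule, gave 44, 45 and 121 UMIs in these cells. A single Foxp3 UMI placed 4, 22 and 12 cells in the set, 38 of the 84, and the highest count in a cell was 9, 3 and 11. Cd4 was not part of the rule, and 8, 5 and 30 Tregs had a Cd4 UMI, 43 of 84. Among B cells, which should lack Foxp3, 0.198%, 0% and 0.0485% of cells had a Foxp3 UMI, with median depths of 6319, 809 and 5156 UMIs. NK cells had none in 349, 237 and 233 cells, which at 3 counts of the total allows shares of cells with a UMI of up to 0.860%, 1.27% and 1.29%. Neutrophils had one in 0.341%, 0% and 0% of cells. T cells with a Cd8a or Cd8b1 UMI, the class nearest to Tregs, had one in 1.29% (0.267 to 3.73), 0% and 1.04% (0.338 to 2.40) of 232, 404 and 482 cells.

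The cells on both sides of the Foxp3 threshold were set beside each other by the summed level of 26 genes known for high expression in Tregs, with Foxp3 left out. The level is in CPM, counts per 1000000 UMIs of the cells. Tregs with exactly 1 Foxp3 UMI had 5965, 5810 and 4303 CPM of this signature, and those with 2 or more had 9637, 6257 and 7000 CPM. Foxp3-negative CD4 T cells had 994, 1786 and 1474 CPM, and CD8 T cells 743, 829 and 668 CPM. Tregs with 1 Foxp3 UMI thus lay between the other Tregs and the Foxp3-negative cells in every library, although at 2 hours the counting intervals of both kinds of Treg overlapped. The gates kept out 32 of the 116 cells with a Foxp3 UMI, 24 because they lay outside the T cell gate and 8 because of a Cd8 UMI. Those outside the T cell gate, 5, 11 and 8 by library, had 2021, 7563 and 2196 CPM of the signature. At 2 hours the interval of the 11 cells (6370 to 8914 CPM) overlapped that of the Tregs of that library, which had 5948 CPM (5262 to 6698), and in the other libraries the cells outside the gate were lower than the Tregs.

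Tregs made up 2.75% of T cells without Cd8 UMIs in the naive library (95% Clopper-Pearson interval 1.47 to 4.66, 13 of 472 cells). They made up 1.86% at 2 hours (1.26 to 2.62, 31 of 1670 cells) and 6.73% at 3 days (4.85 to 9.06, 40 of 594 cells). The interval at 3 days lay above both others. Because a deeper cell is more likely to show a Foxp3 UMI, the shares were taken again with every cell thinned to 500 UMIs, which left out 11 shallower cells at 2 hours and none in the other libraries. Then 3 of 472, 12 of 1659 and 8 of 594 cells had a Foxp3 UMI, or 0.636% (0.131 to 1.85), 0.723% (0.374 to 1.26) and 1.35% (0.583 to 2.64). These intervals overlapped, and in 100 such draws they overlapped between all libraries in 98. Here the T cell and Cd8 gates were still read at full depth. When every kept cell was thinned and all gates were read again, which left out 469 shallower cells at 2 hours, the median over 100 draws was 1 cell with a Foxp3 UMI of 203, 8 of 1023 and 4 of 352. The median share was 0.504%, 0.786% and 1.17%, with draws from 0 to 1.56%, 0.383 to 1.53% and 0 to 2.63%, and the intervals overlapped in all 100 draws. With so few cells a difference in the share of Tregs between libraries was not detectable at this depth. Foxp3 chose the cells, so the shares describe them only.

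**Figure D1:**
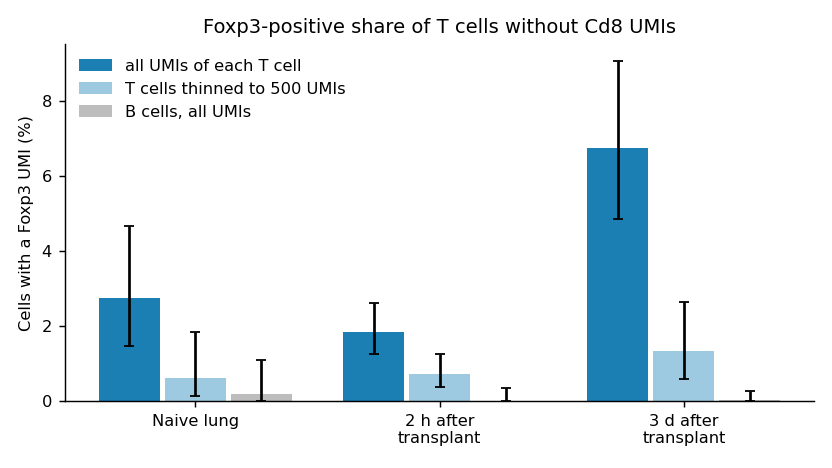
Share of cells with a Foxp3 UMI, in percent, in each library, for T cells without Cd8 UMIs at full depth, for the same cells thinned to 500 UMIs, and for B cells; error bars are 95% Clopper-Pearson intervals. The bar at 3 days is tallest at full depth (6.73%), and the intervals of the thinned cells overlap.

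To ask what set the Tregs apart from other helper T cells, UMIs were summed over Tregs and over Foxp3-negative CD4 T cells of each library. A gene is called higher or lower below where log2 of the ratio of CPM plus 10 was at least 1 or at most -1 in all 3 libraries. A gene was measured where its level averaged 50 CPM or more over the 6 sums. Of 3042 measured genes, 73 were higher by this rule (2.4% of genes) and 12 were lower (0.394%). These counts depended on the scaling. With ribosomal and mitochondrial genes out of the total, 67 were higher and 29 lower. Thinned to 500 UMIs per cell, 116 were higher and 40 lower, and with 50 CPM added in place of 10, 39 and 6. For 25 of the higher and 4 of the lower genes the counting interval of the ratio held 1 at 2 hours, where UMIs were few, and in the other libraries it held 1 for none of them. The 25 included Nt5e, Pou2f2, Gzmb and Icam1, which are named below. A gene that is nearly absent from the other cells can be measured through Tregs alone, so some counts are also given over all members of a list with no minimum level, where 106 of 31597 genes were higher (0.335%). Of the 2869 genes that averaged 50 CPM in the Foxp3-negative cells alone, 37 were higher (1.29%). The median log2 ratio of the 3042 genes was 0.18, 0.10 and 0.17. Joined folds combine the libraries, each compared within itself, and a gene named without this rule is given by its values.

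The IL-2 receptor was among the clearest differences. Il2ra (chr2:11642807-11693193 of mm10, plus strand) had 357, 175 and 220 CPM in Tregs and 8.33, 7.35 and 11.9 CPM in Foxp3-negative CD4 T cells. The lowest Treg value lay well above the highest value of the other cells, and the joined fold was 26.1 (18.1 to 38.1). In the naive library 1 cell held 22 of the 48 Il2ra UMIs of Tregs. Il2rb, which encodes the beta chain shared with the receptor for IL-15, had 282, 437 and 426 CPM against 94.1, 125 and 142 CPM. Il2rg, the common gamma chain, stood at 305, 634 and 338 CPM against 193, 272 and 168 CPM and did not reach the 2-fold rule in every library. Over all 13 genes of IL-2 and STAT5 signalling, of which 11 were measured, Il2ra and Il2rb were thus higher and Bcl2, a survival gene, was lower. Il2ra was measured only through Tregs, and of the 9 members that averaged 50 CPM in the Foxp3-negative cells Il2rb alone was higher. Cish and Pim1, both targets of this pathway, had joined folds of 3.46 (2.51 to 4.72) and 2.54 (2.33 to 2.77) but fell short of 2-fold in at least 1 library.

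Ctla4 and 4 receptors of the TNF family (Tnfrsf4, Tnfrsf9, Tnfrsf18 and Tnfrsf1b) were the 5 higher genes among 17 coreceptors, of which 12 were measured. Ctla4 (chr1:60887000-60915832, plus strand), which competes with CD28 for costimulatory ligands, had 1129, 1006 and 743 CPM in Tregs against 81.0, 154 and 75.7 CPM, a joined fold of 11.0 (9.45 to 12.8). A Ctla4 UMI was seen in all 13 naive Tregs, in 16 of 31 at 2 hours and in 32 of 40 at 3 days, whereas 27.7%, 10.6% and 22.5% of Foxp3-negative CD4 T cells and 5.93%, 0.905% and 0.970% of B cells had one. Tnfrsf9 (4-1BB; chr4:150914562-150946102, plus strand) had 416, 415 and 143 CPM against 7.74, 29.4 and 17.6 CPM. Tnfrsf4 (OX40) had 580, 700 and 523 CPM against 45.8, 66.1 and 106 CPM. For each of these 3 receptors the lowest Treg value lay above the highest value of the other cells. Tnfrsf18 (GITR) and Tnfrsf1b (TNFR2) were also higher, with joined folds of 2.31 (1.94 to 2.73) and 3.78 (3.12 to 4.57). Tnfrsf9 was measured only through Tregs, and of the 10 members that averaged 50 CPM in the Foxp3-negative cells 4 were higher. No coreceptor was lower. Cd28 itself was at 349, 219 and 269 CPM against 339, 198 and 267 CPM, a joined fold of 1.02 (0.847 to 1.22). Icos, which sustains effector Tregs, had 1010, 328 and 649 CPM against 211, 250 and 226 CPM, so it was past 2-fold in the naive and 3-day libraries and not at 2 hours.

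Transcription factors of the Treg program followed. Ikzf2 (Helios; chr1:69531214-69687245, minus strand) had 2452, 984 and 1347 CPM in Tregs and 71.4, 103 and 92.8 CPM in the other cells, a joined fold of 20.4 (17.9 to 23.3). It had a UMI in 11 of 13, 15 of 31 and 30 of 40 Tregs, and no cell held more than 8.02% of its UMIs. Ikzf4 (Eos) had 111, 131 and 59.3 CPM against 9.53, 95.5 and 12.3 CPM and was not past 2-fold at 2 hours. Gata3, which some Tregs of barrier tissues share with type 2 helper cells, had 260, 940 and 324 CPM against 52.4, 103 and 83.6 CPM. Maf and Rora were also higher, with joined folds of 3.20 (2.76 to 3.71) and 3.04 (2.64 to 3.49). Tbx21, the type 1 factor, had no UMI in any Treg, where 7.84 UMIs would have been found at the level of the Foxp3-negative cells, an upper limit of the fold of 0.483.

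Genes known from tissue Tregs included the IL-33 receptor and CD103. Il1rl1 (chr1:40429570-40465415, plus strand) had 193, 372 and 338 CPM in Tregs against 8.93, 0 and 21.1 CPM, a joined fold of 18.2 (13.4 to 25.03). It was seen in 4, 9 and 13 Tregs, and in the naive library 1 cell held 20 of its 26 Treg UMIs. Itgae (chr11:73090583-73147446, plus strand) had 156, 109 and 129 CPM against 1.19, 0 and 0.880 CPM. One naive cell held 14 of the 21 Itgae UMIs of naive Tregs. The Foxp3-negative cells held 4 Itgae UMIs in all, so its fold of 143 (52.9 to 542) is loosely bounded. Areg, a growth factor for epithelium, had 52.0, 153 and 195 CPM against 13.1, 14.7 and 32.1 CPM, and Ccr2, a receptor for monocyte chemoattractants, 171, 219 and 440 CPM against 31.0, 51.4 and 60.3 CPM. Of the 20 genes of this list 9 were measured. Il1rl1, Areg, Gata3, Rora, Itgae, Maf, Tnfrsf9 and Ccr2 were higher, 8 in all, and none was lower. Il1rl1, Areg, Itgae, Tnfrsf9 and Ccr2 were measured only through their level in Tregs, and of the 4 genes that averaged 50 CPM in the Foxp3-negative cells 3 were higher. The median log2 ratio over the 20 genes was 1.41, 1.39 and 1.43. The residency receptors Ccr8 and Cxcr6, in contrast, had no UMI in any Treg. Cxcr6 would have given 14.0 UMIs at the level of the other CD4 T cells, and the upper limit of its fold was 0.267, whereas Ccr8 had 1 UMI among the Foxp3-negative cells.

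Markers of ILC2s overlap with this list, since Gata3, Il1rl1 and Rora are high in both cell types. The 9 genes summed to 1166, 1662 and 1392 CPM in Tregs against 289, 198 and 326 CPM, with Rora the most abundant. The defining genes Il13, Il5, Kit and Calca were at 0 UMIs in all 84 Tregs.

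The remaining genes with the largest ratios were Lrrc32, Hopx, Glrx and Itgav. Lrrc32 (GARP; chr7:98489283-98502181, plus strand), which holds latent TGF-beta on the Treg surface, had 208, 219 and 136 CPM against 4.76, 7.35 and 7.04 CPM. Hopx, a cofactor found in antigen-experienced Tregs, had 736, 1071 and 642 CPM against 61.9, 29.4 and 93.3 CPM. In the naive library 1 cell held 58 of its 99 Treg UMIs. Glrx, a glutaredoxin, and Itgav, an integrin chain that can release active TGF-beta, had joined folds of 9.11 (6.97 to 11.9) and 8.52 (6.70 to 10.8). Itgb8, the partner of Itgav in that release, was found at 25 UMIs in Tregs where 0.378 would have been found at the other cells' level, but it was too low to enter the count of genes. The 10 genes were chosen by these ratios, so their levels describe them only.

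**Figure D2:**
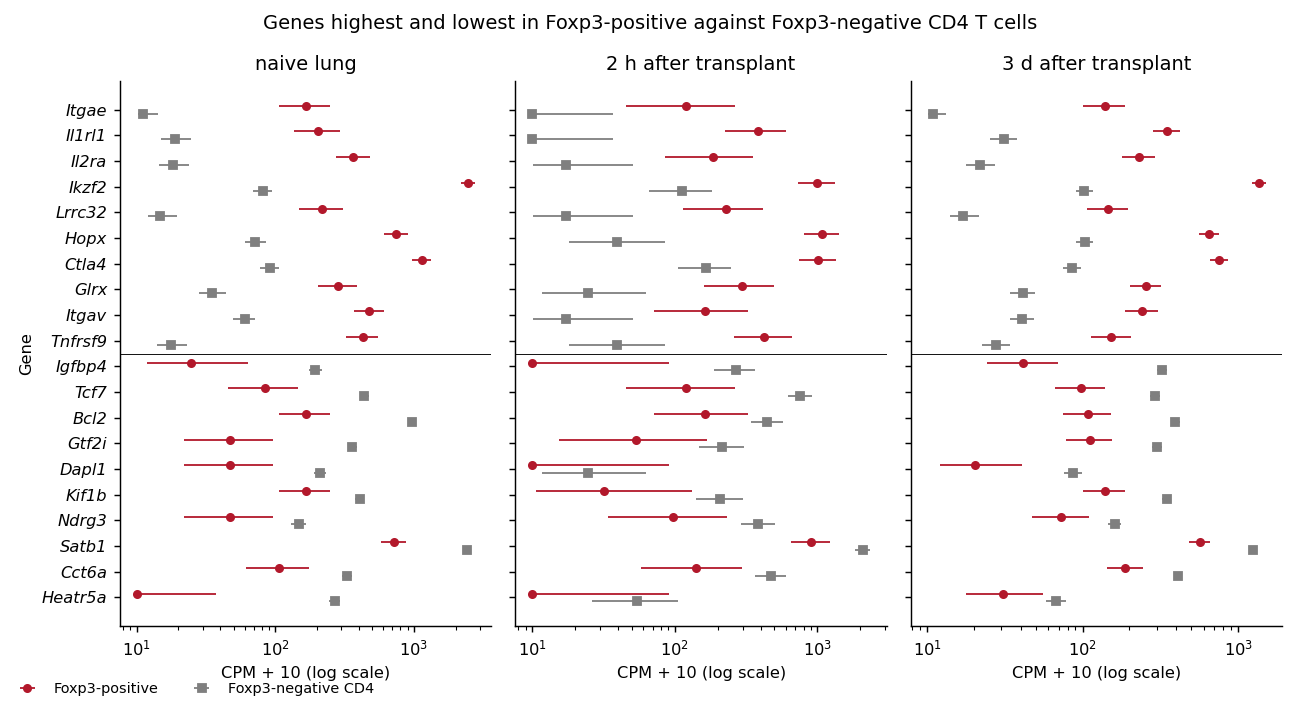
Levels of the 10 genes with the largest and the 10 with the smallest ratios of Tregs to Foxp3-negative CD4 T cells, as CPM plus 10 on a log axis, 1 panel per library; circles are Tregs, squares Foxp3-negative CD4 T cells, and lines 95% Poisson intervals. Il2ra, for example, stood at 357, 175 and 220 CPM in Tregs against 8.33, 7.35 and 11.9 CPM; the intervals at 2 hours are widest.

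Promoters are shown for 3 receptors that were each higher in Tregs, because NF-kB and forkhead factors, Foxp3 among them, are known regulators of Treg genes. The sequences are the 250 bases before a RefSeq start site in GRCm38.p6, all on the plus strand, with capitals marking a match to the NF-kB letters (GGGA and CC with 4 bases between them) or to the forkhead letters (TGTTTA), each searched on both strands. Of 10 Treg genes looked up, 6 had a window and these had 9 windows, of which 2 held the NF-kB letters and 4 the forkhead letters. Over 32851 mouse promoter windows of the same length the shares were 17.6% and 12.0%. The window of Il2ra lies at chr2:11642542-11642791, that of Tnfrsf9 at its second start site at chr4:150927749-150927998, and that of Il1rl1 at its second start site at chr1:40439379-40439628.
Il2ra: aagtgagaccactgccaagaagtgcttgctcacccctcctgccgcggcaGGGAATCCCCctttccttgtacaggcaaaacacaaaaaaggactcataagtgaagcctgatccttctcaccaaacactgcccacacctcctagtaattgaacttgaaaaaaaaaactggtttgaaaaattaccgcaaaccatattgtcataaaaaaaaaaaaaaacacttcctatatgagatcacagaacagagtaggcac
Tnfrsf9: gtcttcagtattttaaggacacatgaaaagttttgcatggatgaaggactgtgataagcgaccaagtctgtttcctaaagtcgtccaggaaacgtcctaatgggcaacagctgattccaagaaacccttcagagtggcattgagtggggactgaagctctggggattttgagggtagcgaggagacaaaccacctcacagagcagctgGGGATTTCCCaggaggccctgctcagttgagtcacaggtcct
Il1rl1: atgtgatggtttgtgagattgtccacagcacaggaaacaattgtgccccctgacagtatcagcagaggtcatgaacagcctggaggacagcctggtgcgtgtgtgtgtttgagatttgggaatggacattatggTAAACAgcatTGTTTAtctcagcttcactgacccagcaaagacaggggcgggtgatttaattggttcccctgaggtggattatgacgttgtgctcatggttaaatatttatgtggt
The windows of Ctla4 and Tnfrsf4 held neither set of letters. A match describes the sequence and is not a bound site.

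The signature list as a whole had 8685, 5948 and 6206 CPM in Tregs against 994, 1786 and 1474 CPM in Foxp3-negative CD4 T cells. Of its 26 genes 19 were measured. The higher ones were Il2ra, Ctla4, Tnfrsf4, Tnfrsf18, Tnfrsf9, Ikzf2, Capg, Lrrc32, Itgae, Nt5e and Pou2f2, 11 in all, and with no minimum level Swap70 also passed, 12 of 26, with none lower. Of the 11, 6 averaged under 50 CPM in the Foxp3-negative cells and were thus measured through Tregs, and of the 9 members that averaged 50 CPM there, 5 were higher. The median log2 ratio over all 26 genes was 2.26, 1.51 and 1.51. Members that missed the rule were uneven between libraries or too low to be measured. Nrp1, a marker of thymus-derived Tregs, had 156, 21.9 and 157 CPM against 22.03, 14.7 and 26.4 CPM, with a single UMI behind the value at 2 hours. Izumo1r (folate receptor 4) had 134, 43.7 and 195 CPM against 35.7, 58.8 and 60.7 CPM. Klrg1, found on terminally differentiated Tregs, had 7.43, 109 and 119 CPM against 11.9, 0 and 2.20 CPM. Ly6a had 57 of its 135 Treg UMIs in 1 cell. The others of the list, Gpr83, Tigit, Entpd1, Socs2, Swap70, Plagl1, Ecm1, Gbp7 and Cd83, had joined folds from 1.54 (Ecm1) to 6.31 (Plagl1, 4 UMIs).

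Of 14 molecules by which Tregs are known to suppress, 6 were higher with no minimum level and none was lower. They were Lrrc32, Nt5e (CD73, which makes adenosine), Gzmb, Lgals1 (galectin-1), Areg and Itgb8. Itgb8 was too low to be measured, and Lrrc32, Gzmb and Areg were measured only through Tregs. Of the 3 members that averaged 50 CPM in the Foxp3-negative cells, Nt5e and Lgals1 were higher. Nt5e had 371, 131 and 262 CPM against 61.9, 51.4 and 73.0 CPM. Lgals1 had 632, 940 and 708 CPM against 219, 176 and 271 CPM. The value of Gzmb rested on 1 naive cell, which held 72.1% of its Treg UMIs. Il10 had 2 UMIs in all, both at 3 days, Ebi3 had 4, and Il12a none. Tgfb1 was at 134, 219 and 101 CPM against 78.6, 80.8 and 86.7 CPM, below 2-fold in the naive and 3-day libraries.

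Cytokines of helper T cells were scarce in both cell types. Ifng, Il4, Il5, Il13, Il17a, Il17f, Il21, Il22 and Csf2 had no UMI in any Treg, where 3 UMIs over all Tregs would correspond to 6.42 CPM. At the level of the Foxp3-negative cells Ifng would have given 3.54 UMIs, with an upper limit of the fold of 1.10, and the other 8 fewer than 3, so a lower level in Tregs was not detectable at this depth. Ltb, the measured member of this list, had 505, 153 and 579 CPM against 216, 140 and 286 CPM.

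The 73 higher genes also held S100a4, S100a6, Vim and Lmna, which belong to no list and were named after their values had been seen. On the log2 scale of CPM plus 10, S100a4, a calcium-binding protein, was higher by 1.74, 3.65 and 2.34, its relative S100a6 by 1.95, 3.18 and 1.31, Vim (vimentin) by 2.00, 2.71 and 1.30 and Lmna (lamin A) by 2.15, 2.48 and 2.48. Traf1, an adaptor of TNF receptors induced by NF-kB, had 253, 219 and 597 CPM against 69.1, 58.8 and 173 CPM. Together with Icam1 it was the part of the NF-kB list that was higher, 2 of 14 genes (13 measured). Icam1 was measured only through Tregs, and of the 11 members that averaged 50 CPM in the Foxp3-negative cells Traf1 alone was higher. The summed list was higher by 1.06 (0.90 to 1.22), 0.88 (0.54 to 1.23) and 1.05 (0.96 to 1.15) on the log2 scale.

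The 12 lower genes included transcription factors of resting T cells. Tcf7 (TCF-1; chr11:52252371-52283014, minus strand), a factor of naive and memory T cells, had 74.3, 109 and 87.2 CPM in Tregs and 429, 750 and 282 CPM in Foxp3-negative CD4 T cells, a joined fold of 0.232 (0.165 to 0.318). Satb1, a chromatin organizer, had 706, 897 and 558 CPM against 2389, 2073 and 1235 CPM. Bcl2 had 156, 153 and 97.7 CPM against 952, 434 and 384 CPM. Igfbp4, a marker of naive CD4 T cells, had 14.9, 0 and 31.4 CPM against 185, 257 and 315 CPM. The Treg value was below that of the other cells in every library for each of them. Dapl1, Gtf2i, Kif1b, Ndrg3, Cct6a, Heatr5a, Pde3b and Klhdc2 made up the rest of the lower genes, of which Dapl1 and Heatr5a had no Treg UMI at 2 hours. For Dapl1, Heatr5a, Klhdc2 and Pde3b the difference at 2 hours was within counting error. Dapl1, for example, had 2 UMIs in the Foxp3-negative cells there, so that 0.672 UMIs would have been found in Tregs at that level.

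Of the 15 resting genes, all measured, 5 were lower (Tcf7, Satb1, Bcl2, Dapl1 and Igfbp4) and none higher, with the call of Dapl1 resting on the naive and 3-day libraries. Ccr7 and Klf2, of the same list, behaved otherwise. Ccr7 had 446, 765 and 345 CPM in Tregs against 430, 522 and 344 CPM, a joined fold of 1.07 (0.912 to 1.24). Klf2, a factor of T cell quiescence and trafficking, had a joined fold of 1.01 (0.904 to 1.13). Lef1, the partner of Tcf7, had 483, 219 and 213 CPM against 1829, 713 and 424 CPM and missed the rule only at 3 days. For Ccr7 and Klf2 the joined intervals held 1.

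**Figure D3:**
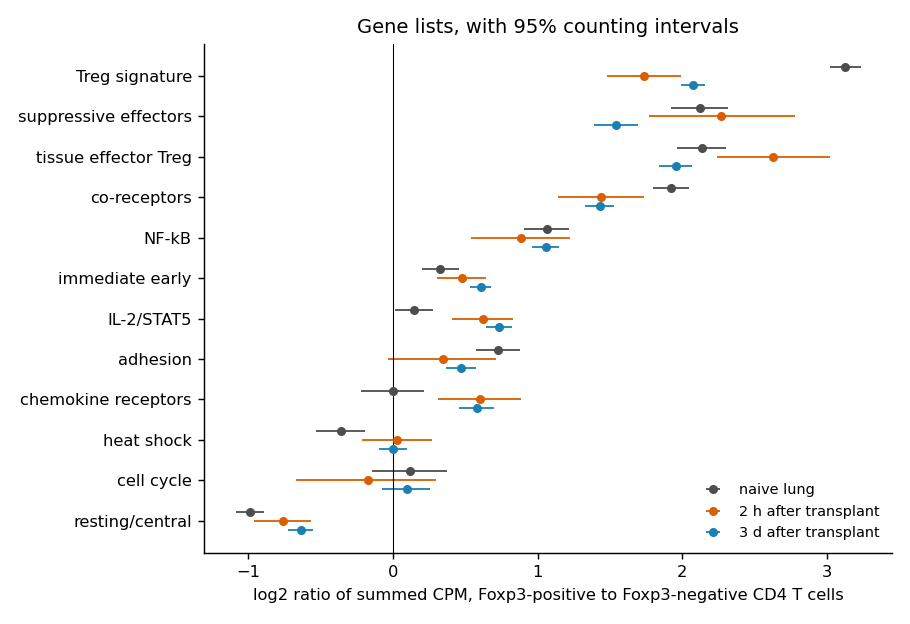
Log2 ratio of the summed CPM of each gene list in Tregs to that in Foxp3-negative CD4 T cells, 1 point per library, with 95% counting intervals. The signature, suppressive, tissue, coreceptor and NF-kB lists lie above 0 in all 3 libraries, the resting list below 0 against these cells, and the cell cycle list spans 0.

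Among other programs, none of 11 heat-shock genes, 10 measured interferon-response genes and 5 measured cell cycle genes was past 2-fold in the same direction in all libraries. The summed interferon list was higher by 1.87 (1.75 to 2.00) in the naive library, of which Ifi27l2a held 527 UMIs, against 0.41 (0.14 to 0.68) and 0.68 (0.56 to 0.80) later. Mki67, a marker of dividing cells, had a UMI in 0, 0 and 3 Tregs. At 3 days this was 7.5% of Tregs (1.57 to 20.4), against 5.80% of Foxp3-negative CD4 T cells (3.35 to 9.24) and 2.04% of B cells. The intervals of Tregs and Foxp3-negative CD4 T cells overlapped. Among 19 chemokine receptors, of which 6 were measured, Ccr2 was higher, and it was measured only through Tregs. Among 12 adhesion genes Itgae, Itgav and Icam1 were higher, all measured only through Tregs, and Itgb7, which pairs with Itgae, had 468, 262 and 419 CPM against 180, 36.7 and 212 CPM, just short of the rule at 3 days.

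Markers of other cell types were found in both kinds of T cell. The 10 neutrophil genes summed to 44.6, 743 and 321 CPM in Tregs and 38.7, 485 and 439 CPM in Foxp3-negative CD4 T cells, with Cxcl2 the most abundant. The 12 macrophage and monocyte genes summed to 327, 437 and 747 CPM against 251, 419 and 931 CPM, with Cst3 the most abundant and Mrc1 at 0. The 8 NK cell genes summed to 29.7, 219 and 157 CPM against 313, 80.8 and 191 CPM, with Gzma the most abundant and Ncr1 at 0. The B cell list summed to 364, 503 and 272 CPM against 175, 191 and 157 CPM, with Ighm the most abundant, and was higher in Tregs in every library, by 1.06 (0.59 to 1.5), 1.40 (0.52 to 2.26) and 0.79 (0.42 to 1.15) on the log2 scale. Dendritic cell genes summed to 126, 481 and 237 CPM against 50.01, 647 and 1060 CPM, with Cd74 the most abundant and Flt3, Xcr1, Clec9a, Cd209a and Siglech at 0. At 3 days their log2 ratio of Tregs to the other cells was -2.16 (-2.53 to -1.81). Endothelial genes summed to 334, 65.6 and 171 CPM against 311, 51.4 and 101 CPM, with Pecam1 the most abundant and Cldn5, Kdr and Ramp2 at 0. Genes of gamma-delta T cells summed to 0, 0 and 10.5 CPM against 10.7, 0 and 18.0 CPM, with Trdc, Tcrg-C2, Sox13 and Cd163l1 at 0. The part of these RNAs in the ratios was not tested.

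Since many Foxp3-negative CD4 T cells had a Ccr7 UMI, all Tregs were also set against the 39, 61 and 86 Foxp3-negative CD4 T cells without one. Against these cells, all 10 genes with the largest ratios were at least 2-fold higher in all libraries. The 10 genes were chosen with the same Tregs and with a set that holds these comparison cells, so their values here describe them only. Ikzf2 had a joined fold of 9.10 (7.77 to 10.7), Ctla4 of 7.35 (6.02 to 9.03) and Il2ra of 12.8 (8.06 to 21.2), while Lrrc32 had no UMI in these other cells. Of all 3042 measured genes 36 were higher in this comparison (1.18%), and of the 73 genes that were higher against all Foxp3-negative CD4 T cells 28 remained (38.4%). Of the 11 higher signature genes 9 remained (Itgae, Il2ra, Ikzf2, Lrrc32, Ctla4, Tnfrsf9, Tnfrsf4, Capg and Nt5e). Of the 8 higher tissue genes 4 remained (Il1rl1, Gata3, Itgae and Tnfrsf9). Areg and Ccr2 fell short in the naive library, with log2 ratios of -0.15 and 0.37. Rora and Maf had joined folds of 1.19 (1.03 to 1.37) and 1.37 (1.17 to 1.60), and the ratio of the tissue list fell to 0.45, 2.56 and 1.05 on the log2 scale, from 2.13, 2.62 and 1.95 against all Foxp3-negative CD4 T cells. The resting list, which holds Ccr7 itself, moved from -0.99, -0.76 and -0.64 to -0.076, -0.56 and -0.055, near 0 in the naive and 3-day libraries. The comparison cells lacked Ccr7 UMIs by choice and Tregs did not, so part of this move was fixed in advance. Of the 10 lowest genes 5 were still lower (Igfbp4, Tcf7, Bcl2, Gtf2i and Cct6a), and Satb1 had a joined fold of 0.666 (0.583 to 0.759). Tregs with Ccr7 UMIs were kept, so the groups differ in this choice. This comparison was chosen after the data had been seen.

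The Tregs were not uniform. A UMI of Klrg1, Il1rl1, Ccr8, Areg or Itgae, taken as a tissue set, was found in 5 of 13, 11 of 31 and 20 of 40 Tregs (38.5%, 35.5% and 50%). In Foxp3-negative CD4 T cells the shares were 8.70%, 1.92% and 12.0%, and in B cells 1.38%, 0.302% and 5.09%. With every cell thinned to 500 UMIs, 7.69%, 22.6% and 17.5% of Tregs had one, against 1.09%, 0% and 2.17% of Foxp3-negative CD4 T cells. The intervals of Tregs and of the other CD4 T cells did not overlap at full depth in any library, and after thinning they overlapped in the naive library alone. A Ccr7 UMI was found in 7 of 13, 15 of 31 and 21 of 40 Tregs, and thinned to 500 UMIs in 7.69%, 29.0% and 10% against 24.5%, 25% and 14.1% of Foxp3-negative CD4 T cells, with overlapping intervals.

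The tissue set and Ccr7 were found together in 1, 2 and 6 Tregs, Ccr7 alone in 6, 13 and 15, the tissue set alone in 4, 9 and 14, and neither in 2, 7 and 5. Genes outside the tissue set were then compared between the 5, 11 and 20 Tregs with a UMI of the set and the 8, 20 and 20 without, whose median depths were 11861, 1542 and 7325 UMIs and 10351, 1124.5 and 5668.5 UMIs. S100a4 had 1878, 802 and 3429 CPM in the former and 61.5, 77.6 and 680 CPM in the latter. Hopx had 1484, 2356 and 1005 CPM against 246, 77.6 and 201 CPM, and Ccr2 had 432, 351 and 547 CPM against 0, 116 and 309 CPM. Satb1 was opposite, with 56.3, 201 and 337 CPM against 1131, 1435 and 827 CPM, and so was Tcf7, with 0, 0 and 31.8 CPM against 123, 194 and 154 CPM. Both values were thus lowest in Tregs with tissue genes, and those of Tregs without also stayed below the Foxp3-negative cells of each library. The counting intervals of both kinds of Treg were apart for S100a4, Hopx and Satb1 in all libraries. In the naive library 1 cell held 58 of the 99 Treg UMIs of Hopx, so its gap there rests largely on that cell. The intervals of Tcf7 overlapped in the naive library and at 2 hours, and those of Ccr2 at 2 hours. Other resting genes were less uniform. Lef1 had 131, 100.3 and 191 CPM against 713, 310 and 239 CPM, Klf2 had 319, 301 and 662 CPM against 885, 2831 and 703 CPM, and S1pr1, the receptor for exit from tissue, had 131, 301 and 433 CPM against 479, 271 and 425 CPM. The counting intervals overlapped for Lef1 and S1pr1 at 2 hours and for all 3 genes at 3 days. Gata3, of the longer tissue list, was uneven between libraries, with 207, 1554 and 509 CPM against 295, 465 and 100.4 CPM. Its intervals overlapped in the naive library, where the value was lower in Tregs with tissue genes. Foxp3 itself had 301, 802 and 477 CPM against 344, 1125 and 355 CPM, and Ctla4 1596, 1153 and 783 CPM against 824, 892 and 695 CPM. The number of cells behind these values is small, and the Tregs were split by the UMIs of single cells, so a cell without a UMI may still express the gene.

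**Figure D4:**
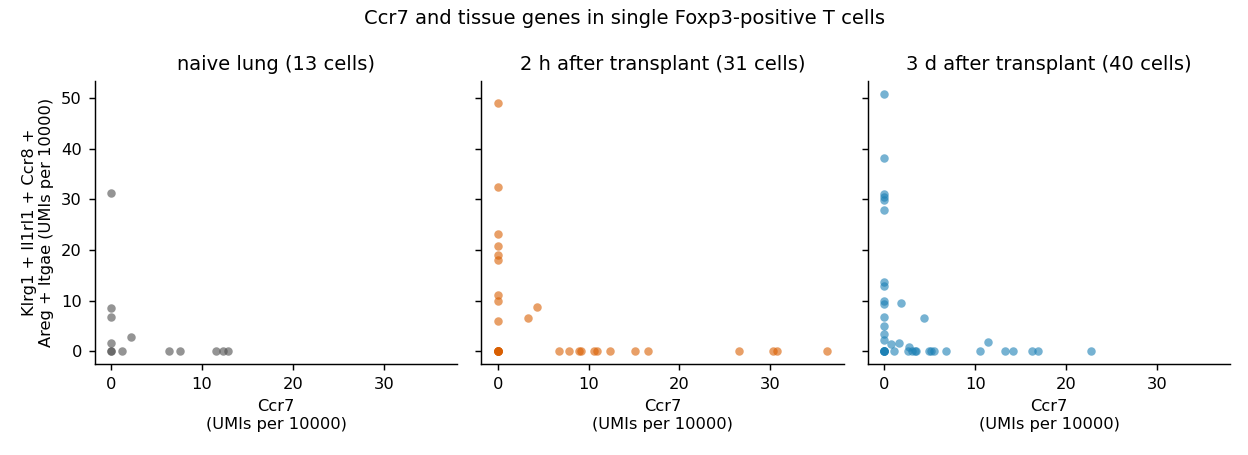
Each point is a Treg, with the UMIs of Ccr7 per 10000 UMIs of the cell on the x axis and those of Klrg1, Il1rl1, Ccr8, Areg and Itgae on the y axis, 1 panel per library. Cells with many Ccr7 UMIs mostly lie at 0 for the tissue genes, and 1, 2 and 6 cells hold both.

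Tregs were then compared across libraries, beside Foxp3-negative CD4 T cells of the same libraries, which share any difference in mice, cell preparation and counting software. For 3211 genes that averaged 50 CPM or more over these sums, 15.6% were at least 2-fold higher and 28.3% at least 2-fold lower in Tregs at 2 hours than in naive Tregs. At 3 days 7.07% were at least 2-fold higher than in naive Tregs. The share of genes at least 2-fold lower at 3 days is not given here, so counts of lower members there stand without one. Between 2 hours and 3 days, 13.1% were higher and 18.8% lower at 2 hours.

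Immediate-early genes, which are induced within minutes to hours of stimulation, differed between libraries in both cell types. Junb, an AP-1 subunit, had 944, 2515 and 1514 CPM in Tregs and 622, 1786 and 882 CPM in Foxp3-negative CD4 T cells. Fos had 0, 415 and 55.8 CPM against 58.9, 301 and 74.8 CPM, and Dusp1, a phosphatase that ends MAP kinase signals, 134, 809 and 223 CPM against 65.5, 154 and 124 CPM. The value at 2 hours was the highest of the 3 libraries for each of these genes in both cell types. The summed list was higher at 2 hours than in naive lung by 1.19 (1.0 to 1.38) on the log2 scale in Tregs and by 1.04 in Foxp3-negative cells, and 7 of 18 measured genes were at least 2-fold higher and 2 lower. Against 3 days it was higher by 0.53 (0.37 to 0.68) in Tregs and by 0.66 in the other cells, with 4 of 18 genes at least 2-fold higher and 3 lower. When Tregs had to have a Cd4 UMI, as the Foxp3-negative cells did, which left 5 Tregs at 2 hours, this difference turned to -0.023. At 3 days 6 of 18 were at least 2-fold higher than in naive Tregs and none lower, and the summed list was higher by 0.66 (0.52 to 0.80), against 0.38 in the other cells. Other lists moved along in these sums. The 10 neutrophil genes were higher at 2 hours than in naive lung by 4.06 (2.79 to 5.6) in Tregs and by 3.65 in the other cells, and the 11 heat-shock genes by 0.93 (0.66 to 1.2) and 0.54, and their part in the immediate-early values was not tested. Both transplant libraries thus lay above naive lung in immediate-early genes in both kinds of CD4 T cell, and a change particular to Tregs was not tested.

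Cxcr4, a receptor that retains cells near its ligand in stroma, had 81.7, 1574 and 314 CPM in Tregs and 52.4, 735 and 103 CPM in Foxp3-negative CD4 T cells. Pim1, a kinase induced by cytokines, had 944, 3630 and 1525 CPM against 423, 1837 and 528 CPM. Both were highest at 2 hours in either cell type, and the Treg value lay above that of the other cells in each library. The signature list did not follow this order. It was lower in Tregs by 0.55 (0.35 to 0.74) at 2 hours and by 0.48 (0.38 to 0.59) at 3 days than in naive lung on the log2 scale, while in Foxp3-negative cells it was higher by 0.85 and 0.57. Most members did not fall by 2-fold or more. Of 21 measured members 3 were at least 2-fold higher and 6 lower at 2 hours, and 2 higher and 2 lower at 3 days. The median log2 difference was -0.025 and -0.25, beside -0.19 and -0.079 for all genes. At 3 days it thus lay below that of all genes, and at 2 hours above. Ikzf2, the member that was 2452 CPM in naive Tregs, stood at 984 and 1347 CPM in the others. Stat5b, which transmits the IL-2 signal, was highest in the naive library in both cell types. It had 1174, 153 and 272 CPM in Tregs and 908, 250 and 203 CPM in the other cells. The naive library was counted with another software version, and its part in such values cannot be told apart from that of the condition. The tissue list stood 0.40 (0.14 to 0.67) above naive Tregs at 2 hours and 0.24 (0.07 to 0.42) above them at 3 days, but neither direction held under every other setting. Thinned to 500 UMIs per cell the differences were -0.031 and -0.14, with a Cd4 UMI required 0.83 and 0.42, and without any cell with a B cell or myeloid gate UMI, which left 2, 23 and 1 Tregs, 2.49 and -2.75.

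Next came the 5 genes per library whose Treg level most exceeded that in the other libraries, after the same difference in Foxp3-negative cells was subtracted. Most rested on few cells or on the Foxp3-negative values. In the naive library they included Frmd5, with all 62 UMIs in 1 cell, Cd86, a costimulatory ligand with 52 UMIs in 7 of 13 cells, Bc1 and Cd74. At 2 hours they were Txndc16, Bcl2a1b, Mt1, H2-Ab1 and Thbs1, with 6, 6, 8, 6 and 19 UMIs, of which Thbs1 had 17 in 1 cell. At 3 days they were Scgb1a1, a product of club cells of the airway with 236 of its 246 Treg UMIs in 1 cell, Bc1, Notch1, Pik3cd and Ndufb4. Notch1, a receptor of cell fate, had 14.9, 21.9 and 129 CPM against 40.5, 73.5 and 58.1 CPM, with UMIs in 20 of 40 Tregs at 3 days.

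Both transplant libraries also held counts of 277 antibody features. Their names include human antigens, and of the whole panel only CD44, CD45R, CD49f and ITGB7 had over 2 times the counts of the largest of 9 isotype controls in both libraries. The 5 features with most counts took 98.8% and 98.5% of all counts at 2 hours and 3 days. Antibodies named for CD25, CD4, CD103, CTLA4, ICOS, GARP, CD134, CD137, CD357, CD304, CD73, CD39, TIGIT and KLRG1 had no count in any Treg, so the panel gave no view of these proteins. ITGB7, an integrin chain of mucosal homing, had a median of 8 counts per Treg (range 0 to 209) against 6 per Foxp3-negative CD4 T cell at 2 hours, and 46.5 (0 to 451) against 13 at 3 days. CD44, an adhesion receptor of activated T cells, had medians of 9 against 2 and 13 against 6, and CD49f, an integrin chain that binds laminin, 14 against 6 and 36 against 14. All counts of a Treg together had medians of 60 and 121, against 18 and 41 in the other cells. As a share of all antibody counts of the cells, ITGB7 was higher in Tregs than in Foxp3-negative CD4 T cells by 0.31 (0.18 to 0.44) and 0.64 (0.58 to 0.70) on the log2 scale. At 2 hours 1 Treg held 209 of the 932 ITGB7 counts of Tregs, and 1 Foxp3-negative CD4 T cell 315 of 1084. These intervals do not cover such variation between cells, and its part in the ratio was not tested. CD8 T cells had 6916 and 5468 ITGB7 counts per 10000 antibody counts, Tregs 4339 and 5674 and Foxp3-negative CD4 T cells 3505 and 3647. The median per CD8 T cell was 23 and 16 counts, so a high ITGB7 value was not restricted to Tregs. CD44 did not differ measurably at 2 hours, at -0.03 (-0.20 to 0.13), and was lower at 3 days, at -0.71 (-0.83 to -0.59). CD49f was lower, at -0.26 (-0.40 to -0.12) and -0.38 (-0.46 to -0.30). Its direction and that of CD44 depended on whether shares or counts per cell were compared, and ITGB7 was higher in Tregs than in Foxp3-negative CD4 T cells by both.

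**Figure D5:**
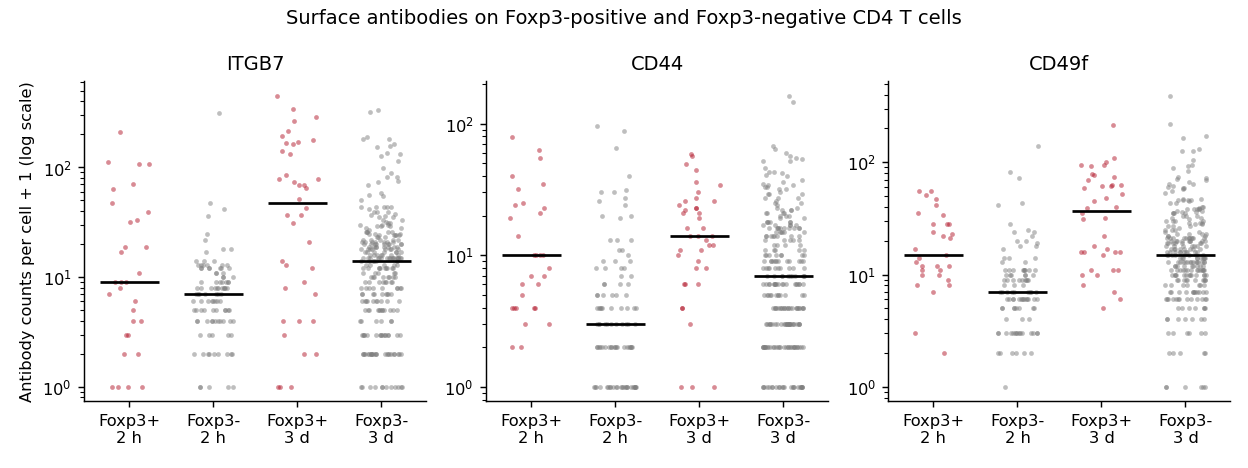
Antibody counts plus 1 of single cells on a log axis for ITGB7, CD44 and CD49f, in Tregs (Foxp3+) and Foxp3-negative CD4 T cells (Foxp3-) of both transplant libraries; each point is a cell and each bar the median plus 1. The Treg medians lie above those of the other cells in all panels, for example 46.5 against 13 counts for ITGB7 at 3 days and 9 against 2 for CD44 at 2 hours, and the points overlap.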

How the data were processed

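Single-cell RNA-Seq of 3 libraries was analysed from UMI counts that the authors deposited as filtered matrices of 32285 genes, with antibody counts in both transplant libraries. Per the file headers the naive library was counted with Cell Ranger 7.1.0 and the others with 6.0.0, and the submitters' processing notes name mm10, Cell Ranger 6 and Seurat 4. Later versions count intronic reads by default, which raises long genes.

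A cell was kept with 200 to 6000 genes (limits excluded), less than 25000 UMIs and less than 10% of them mitochondrial, and gates used single-cell UMIs. Before this filter the deposited cells held 28538529, 10749100 and 70750470 UMIs in the naive, 2-hour and 3-day libraries. Counts were summed per library and cell class and scaled to 1000000 (CPM). Log2 ratios of single genes, and their medians, used CPM plus 10. Joined folds and the ratios of summed lists and antibody shares were taken with nothing added. The 15 gate genes, immunoglobulin, T cell receptor and mitochondrial genes were left out of the counts of genes. Intervals of 95% were exact (Poisson, Clopper-Pearson, or binomial conditional on both sums, joined over libraries) and cover counting error only. With 1 library per group there was no test. Thinning drew 500 UMIs per cell.

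The named genes were the signature list, the 10 highest and 10 lowest by the least extreme of 3 log2 ratios, 5 per library, and examples of the 23 lists. The members and lists were chosen with earlier results of these data known. Some genes that these rules name are not reported here, and homing was read from Ccr7 alone, a choice made after the data were seen. The rule for antibodies was restricted to those above isotype controls. On simulated counts of 2000 genes, the joined ratio of Tregs to Foxp3-negative CD4 T cells recovered a log2 change of 2.0 as a median of 2.02. Of the intervals 95.4% held the true value. These sums were drawn as Poisson counts, the model of the intervals, for genes that averaged 50 CPM or more in the Foxp3-negative cells. They held no variation between cells, so they check the calculation only and not its cover of the real data. Alternatives changed the cell filters, gates, depth, scaling, pseudocount, minimum level and comparison cells. Python 3.11.15, numpy 2.4.6, scipy 1.17.1, pandas 2.3.3, scanpy 1.11.5 and matplotlib 3.10.9 were used. Gene positions are from GENCODE release 21 of the mouse annotation, which holds 32158 of the gene IDs.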

Additional observations from a re-analysis of the deposited data

Results flagged for a closer look

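A few values moved in opposite directions between libraries, and these differences were not tested. Bc1, a short noncoding RNA, had a log2 ratio of Tregs to Foxp3-negative CD4 T cells (CPM plus 10) of 1.52 in naive lung and -1.99 at 2 hours, and its 11 naive Treg UMIs lay in 1 cell. Cd74, the invariant chain of antigen-presenting cells, had ratios of 1.60 in naive lung, -1.19 at 2 hours and -2.07 at 3 days, with 22.6, 463 and 501 CPM in the Foxp3-negative cells. Thbs1 had a ratio of 1.82 at 2 hours, where 17 of its 19 Treg UMIs lay in 1 cell, and -1.64 at 3 days.

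Outside the Treg gate, 3 naive T cells and 5 T cells at 3 days held both Foxp3 and Cd8a or Cd8b1 UMIs. Their signature level was 6451 CPM in naive lung and 2138 CPM at 3 days, against 743 and 668 CPM in CD8 T cells, and the part of doublets in them was not tested.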

How the results depend on the processing

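No paired analysis was possible because each group is 1 library, and for the same reason no replicate could be left out. Of the values that answer a comparison, 70 stayed within their interval or within 1.5 times the main count, 48 moved and 1 turned over, and among the other values 59, 43 and 8 did. The causes were not tested. All values below are log2 ratios for lists, percent for shares and numbers of genes for counts. The signature list stayed above 0 in every library under each alternative.

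Without the cell filter, the naive signature ratio was 2.93. With at least 2 Foxp3 UMIs per Treg, the shares at 2 hours and 3 days were 0.539% and 4.71%, the signature ratios in naive lung and at 3 days 3.28 and 2.25, and 21 genes were lower. With a Cd4 UMI required, the share at 2 hours was 0.299%, immediate-early genes differed by 0.86 (2 hours to naive), -0.023 (2 hours to 3 days, a reversal) and 0.88 (3 days to naive), and 20 genes were lower. Removing every cell with a B cell or myeloid gate UMI left 2, 23 and 1 Tregs. The naive and 3-day shares were then 1.39% and 3.70%, the signature ratios 2.90, 2.04 and 1.77, the immediate-early differences 1.48 (2 hours to naive), 1.24 (2 hours to 3 days) and 0.23 (3 days to naive), and 43 genes were lower. There the tissue list reversed to -2.33 at 3 days and to -2.75 for 3 days to naive, and the CD49f share to 1.84 at 3 days, each from 1 Treg.

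Thinned to 500 UMIs, the shares were 0.636%, 0.723% and 1.35%, the signature ratios in naive lung and at 3 days 3.24 and 2.25, the immediate-early difference of 2 hours to 3 days 0.72, and 116 genes were higher and 40 lower. The tissue list then reversed to -0.031 (2 hours to naive) and -0.14 (3 days to naive). With ribosomal and mitochondrial genes out of the total, the signature ratios in naive lung and at 3 days were 2.95 and 1.87 and 29 genes were lower. A pseudocount of 50 gave 39 higher and 6 lower genes, a minimum mean of 20 CPM 23 lower, a minimum of 100 CPM 47 higher, and no minimum 35 lower. Over all T cells the 3-day share was 3.72%, and among T cells with a Cd4 UMI the shares at 2 hours and 3 days were 4.59% and 9.80%. Median antibody counts per cell in place of shares reversed CD49f at 2 hours (1.22) and CD44 and CD49f at 3 days (1.12 and 1.36).

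Read again from thinned cells, a choice made after seeing the data, all gates gave median shares of 0.504%, 0.786% and 1.17%. The comparisons chosen after seeing the data were against all Foxp3-negative T cells without Cd8, with signature ratios of 2.94 in naive lung and 2.04 at 2 hours and 19 lower genes, and against Foxp3-negative CD4 T cells without Ccr7 UMIs. The latter gave signature ratios of 2.09 in naive lung and 1.59 at 3 days, 36 higher genes and 7 lower. Depth limited the 2-hour library most, where the Tregs held 45731 UMIs.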
